A study of Danio rerio and Xiphophorus maculatus with 12 samples.

Results

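The genes described here are 46 gene symbols that mark macrophages and neutrophils or serve their work: growth factor receptors, lineage transcription factors, surface receptors, the phagocyte NADPH oxidase, signalling kinases and phosphatases, actin regulators, granule proteins, granulins, leukotriene enzymes and lysosomal membrane proteins. They were taken from a list of symbols and matched without regard to case in the gene table of each species. In zebrafish, 43 symbols matched 44 of 32520 gene identifiers, and 38 of these had enough counts to be tested. In platyfish, 35 symbols matched 37 of 24209 identifiers, and 34 were tested. The Wiskott-Aldrich symbol (“was”) matched no gene in either table, and 33 symbols were present in both.

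The study measured messenger RNA by bulk sequencing of whole heart ventricles from 2 fish species, with cryoinjured and uninjured ventricles in each. The 4 groups, of 3 libraries each, were cryoinjured zebrafish, uninjured zebrafish, cryoinjured platyfish and uninjured platyfish. All fish were wild-type adults, and each library was 1 pool of 8 ventricles freed of atrium and bulbus arteriosus. Cryoinjury is local freezing of the ventricle wall, the injured hearts were collected on day 7, and the uninjured fish had undergone no procedure. A pool of whole ventricle mixes all cardiac cell types, so the replicates measure the spread between pools and not between fish. In the treatment field, cryoinjured platyfish pools are called zebrafish; here they were grouped by title, organism and library name, all of which say platyfish.

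Macrophages and neutrophils are phagocytes that enter injured tissue, engulf dead cells and release enzymes, reactive oxygen and signalling molecules. Neutrophils usually come first, and macrophages clear debris and support the growth of new vessels and the turnover of scar. The zebrafish heart is known for regrowing muscle after cryoinjury, and macrophages are needed for that regrowth.

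Total counts ran between 20735097 and 27994535 per zebrafish library and between 19073562 and 31148127 per platyfish library. Cryoinjured zebrafish replicates 2 and 3 had counts in 16530 and 15976 genes, fewer than the 18102 to 18819 of the other zebrafish libraries. The uninjured pools differed from one another in the phagocyte genes. Among the 38 tested in zebrafish, uninjured replicate 2 was the highest of its group in 31 genes and uninjured replicate 3 the lowest in 26, whereas over all genes tested these shares were 33.3% and 34.2%. Among the 34 tested in platyfish, uninjured replicate 1 was the lowest of its group in 29 genes (31.0% of all genes) and uninjured replicate 3 the highest in 20 (38.1% of all genes).

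The summed level of the phagocyte genes, in CPM (counts scaled by the total of all gene counts in the library), was 845, 862 and 1052 in cryoinjured zebrafish replicates 1, 2 and 3, against 373, 647 and 279 in the uninjured ones. The groups did not overlap. Without the 3 granulins the sums were 685, 679 and 711 CPM in cryoinjured zebrafish and 320.0, 423 and 242 CPM in uninjured zebrafish. In platyfish the sums were 1506, 1693 and 1550.5 CPM in the cryoinjured pools and 855, 1117 and 1500.2 CPM in the uninjured ones. On this scale uninjured platyfish replicate 3 lay just under the lowest cryoinjured pool. Whether the platyfish groups overlapped depended on the scaling. With the normalisation used below for single genes, the sums were 35822, 40935 and 42472 normalised counts in cryoinjured platyfish and 23909.7, 33981 and 36627 in uninjured platyfish, so that uninjured replicate 3 exceeded cryoinjured replicate 1. The zebrafish groups stayed separate, at 17882, 21513 and 23884 in cryoinjured zebrafish and 9682, 16796 and 7080.4 in uninjured zebrafish. The actin regulator arpc1b had the most raw counts of the summed platyfish genes. It gave 10057, 8956 and 10327 of the 39002, 44202 and 40687 raw counts summed in cryoinjured platyfish. In uninjured platyfish it gave 5277, 7060 and 4991 of 26628, 33251 and 28615. Whether the platyfish groups overlapped without arpc1b was not tested. In a bulk library, fewer cells of a type and less RNA per cell cannot be told apart.

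**Figure D1:**
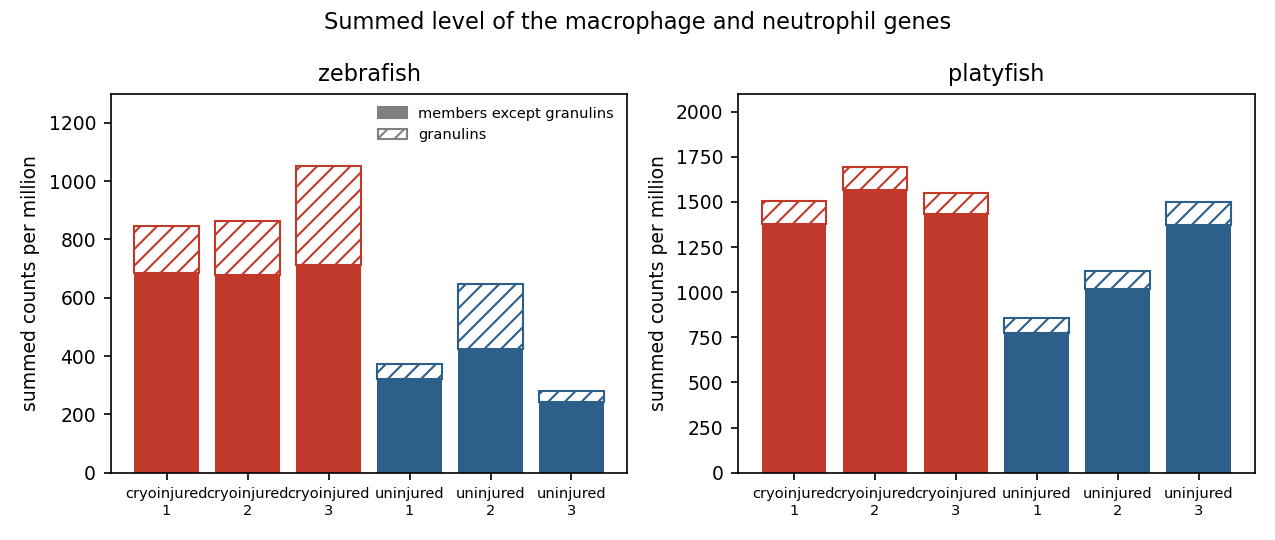
Summed level of the matched phagocyte genes in each library, in CPM, with the granulins hatched and all other genes solid; each bar is 1 pool of ventricles, and the 2 species have separate axes. Cryoinjured zebrafish pools reached 845 to 1052 CPM, above the uninjured pools at 279 to 647 CPM, and the 1500.2 CPM of platyfish uninjured replicate 3 stood beside the cryoinjured platyfish pools.

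In edgeR's quasi-likelihood test with Benjamini-Hochberg adjustment over 13470 genes, 3 of the 38 phagocyte genes rose (7.89%), against a background of 0.676% of all genes called higher (0.980% in either direction), and none of the 38 fell. The 3 were marco, cebpb and cebpa. All cryoinjured libraries lay above all uninjured libraries in 17 of 38 genes, against 10.8% of all genes, and the log2 fold change was above 0 in 34 of 38, against 48.4%. At an unadjusted p under 0.05 there were 20 of 38, all with higher means in cryoinjured ventricles, against 8.31% of all genes. The median log2 fold change was 0.80 over the 38 genes and -0.02 over all genes tested. Fits lacking 1 zebrafish library put the median of the phagocyte genes between 0.59 (uninjured replicate 3 dropped) and 1.06 (uninjured replicate 2 dropped). In platyfish, 0 of 34 genes passed the same test over 15226 genes, against a background of 2.70% called higher and 1.22% called lower (3.92% in either direction). At an unadjusted p under 0.05 there were 5 of 34, all with higher means in cryoinjured ventricles, against 13.2% of all genes in that direction and 24.2% in either. DESeq2 called 4 of 34 higher, against 5.57% of all platyfish genes it tested, and limma voom called 0. The cryoinjured platyfish libraries lay above all uninjured ones in 5 of 34 genes, against 16.8% of all genes. The log2 fold change was above 0 in 28 of 34, against 50.8%, and its median was 0.21, against 0.01 over all genes. The size of this platyfish median depended on single pools. It fell to 0.08 when uninjured replicate 1 was dropped, and rose to 0.44 when uninjured replicate 3 was dropped instead. Over all genes the medians of these fits were -4.99e-05 and 0.02.

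The count of calls depended on the tool. DESeq2 on the same counts called 13 of the 38 zebrafish genes higher, against 2.52% of all zebrafish genes it tested. They were cebpa, cebpb, cyba, cybb, grna, havcr1, hck, marco, ncf1, rac2, spi1a, spi1b and wasb. In the authors' deposited table, 13 zebrafish phagocyte genes of 33 with an adjusted p were higher in cryoinjured ventricles, beside 2.81% of all zebrafish genes with an adjusted p. These were the same genes that DESeq2 called here. The authors' table also came from DESeq2 on the same libraries, so the match is not independent support. The authors' deposited table called 4 of 34 platyfish genes higher (cyba, arpc1b, mpx and coro1a), beside 5.50% of all platyfish genes with an adjusted p, and it called 0 phagocyte genes lower in either species. Leaving out 1 zebrafish library gave 1 to 5 calls. Without uninjured replicate 3 only marco passed. Without uninjured replicate 2 the 5 were cebpb, grna, irf8, marco and spi1a.

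**Figure D2:**
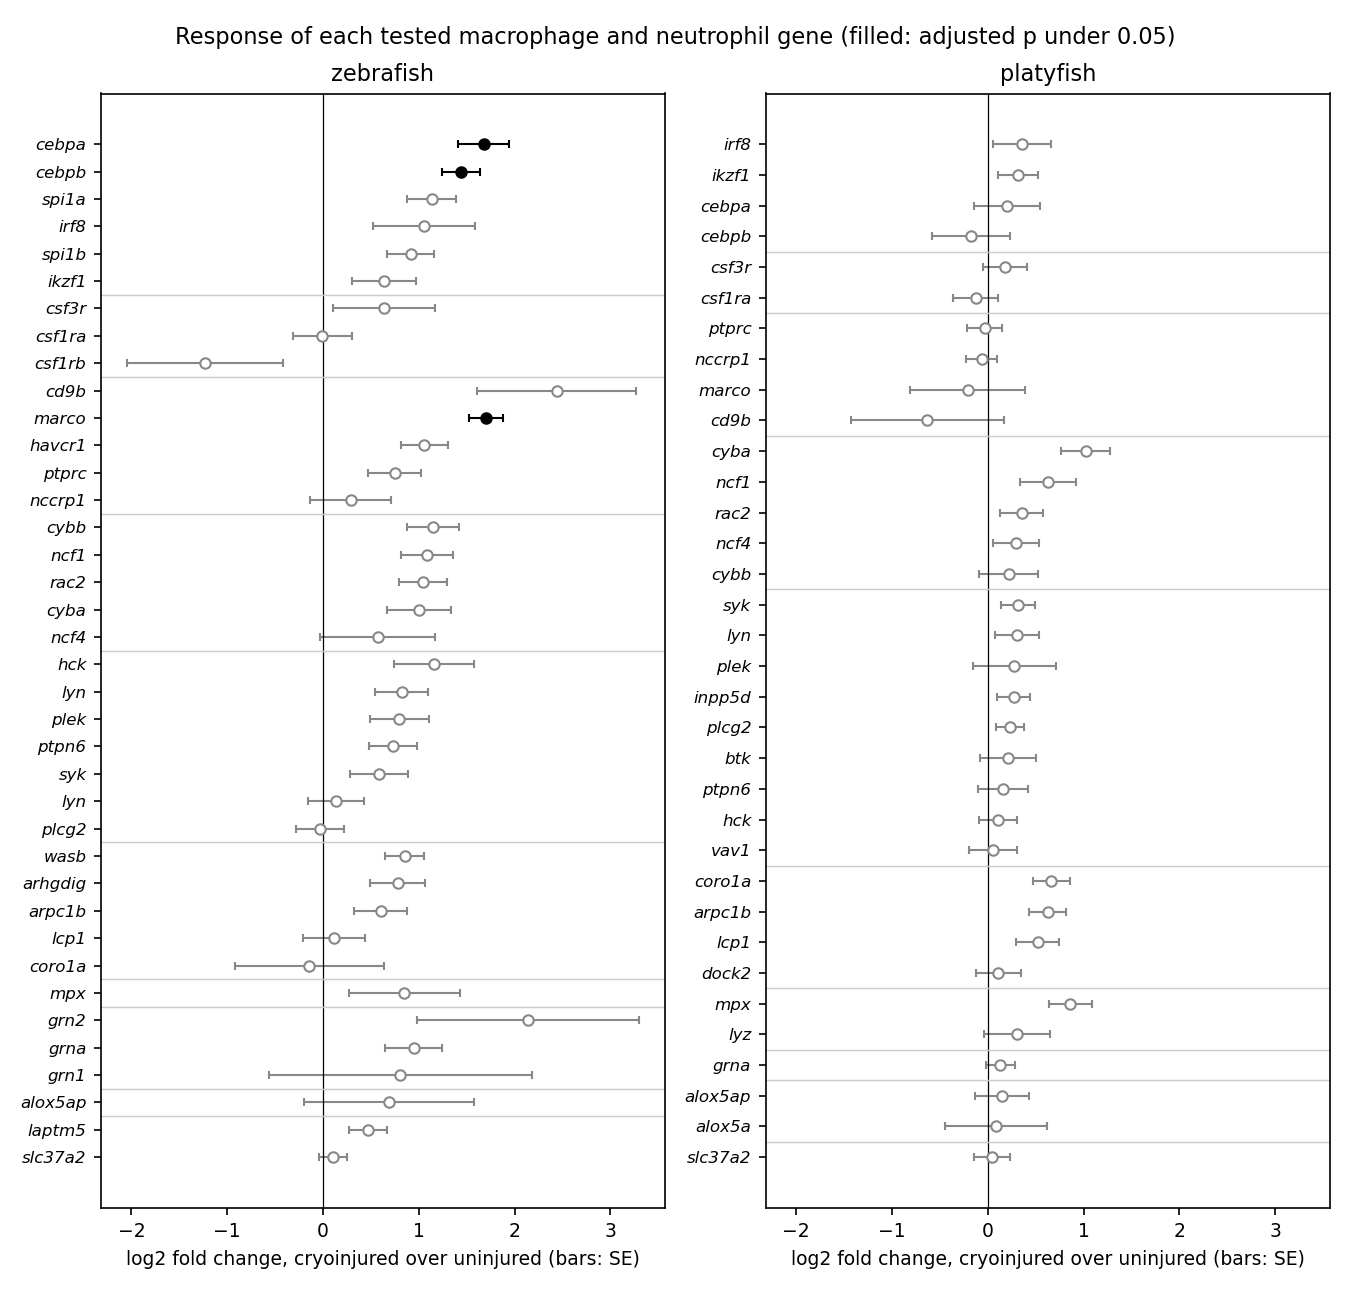
Log2 fold change, cryoinjured over uninjured, of each tested phagocyte gene in zebrafish and platyfish, grouped by role; points are edgeR estimates, bars are 1 standard error, and filled points have an adjusted p under 0.05. The filled points are marco, cebpb and cebpa in zebrafish; no platyfish point is filled.

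Values for single genes are normalised read counts (counts scaled to a common library size within a species, by trimmed mean of M-values), given for replicates 1, 2 and 3 in that order. They can be set side by side within a gene and a species, not between genes or species. Adjusted p-values are from edgeR's quasi-likelihood test.

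The lineage transcription factors included 2 of the 3 genes that rose in zebrafish. The gene cebpb (ENSDARG00000042725, chromosome 8) encodes C/EBPβ, a factor of inflammatory gene expression and of neutrophil production under stress. It had 692, 1128 and 748 normalised counts in cryoinjured zebrafish libraries, against 334, 325 and 287 in uninjured ones. All cryoinjured libraries lay above all uninjured ones, and cebpb rose by 1.44 ± 0.20 on the log2 scale (SE, n = 3 per group, adjusted p = 0.0108), the means being 856 ± 237 and 315 ± 25.2 (SD). The log2 ratios of libraries with the same replicate number lay between 1.05 and 1.80. Without uninjured replicate 3 its log2 fold change was 1.37 with an adjusted p of 0.0553.

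The gene cebpa (ENSDARG00000036074, chromosome 7) encodes C/EBPα, needed for the granulocyte and macrophage lineage. Its normalised counts were 308, 475 and 493 in cryoinjured zebrafish and 173, 130 and 94.2 in uninjured zebrafish. No uninjured library reached the lowest cryoinjured one, and cebpa rose by 1.68 ± 0.27 on the log2 scale (SE, n = 3 per group, adjusted p = 0.0199), with means of 425 ± 102 and 132 ± 39.6 (SD). The ratios by replicate number were unequal, at 0.83, 1.87 and 2.39 on the log2 scale. This call was lost without cryoinjured replicate 2 (adjusted p = 0.129), cryoinjured replicate 3 (0.0948), uninjured replicate 2 (0.0536) or uninjured replicate 3 (0.0721) in the same edgeR test.

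The paralogues spi1a and spi1b encode PU.1, the factor that sets myeloid fate. For spi1a the normalised counts were 308, 498 and 473 in cryoinjured zebrafish, against 169, 262 and 153 in uninjured zebrafish. For spi1b they were 305, 441 and 429 in cryoinjured zebrafish, against 184, 277 and 161 in uninjured zebrafish. Neither gene overlapped between groups, yet neither passed the test: the log2 fold change was 1.13 ± 0.26 for spi1a (adjusted p = 0.0715) and 0.92 ± 0.24 for spi1b (adjusted p = 0.111). With the replicate number as a block, spi1a was called higher (log2 fold change 1.14, adjusted p = 0.0458). It was also called by DESeq2, under scaling by total counts, and with no filter on low counts. Leaving out cryoinjured replicate 1 or uninjured replicate 2 gave a call of spi1a too. DESeq2 and the setting with no filter also called spi1b.

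In irf8, which directs myeloid precursors to the macrophage fate in zebrafish, the normalised counts were 679, 877 and 581 in cryoinjured libraries and 271, 626 and 134 in uninjured ones. The groups overlapped through uninjured replicate 2, and the log2 fold change was 1.06 ± 0.53 (adjusted p = 0.415). It was 1.81 without uninjured replicate 2 (adjusted p = 0.0417) and 0.67 without uninjured replicate 3 (adjusted p = 0.510) in edgeR's test. The Ikaros gene ikzf1, a lymphoid and myeloid regulator, had a smaller difference of 0.64 ± 0.33 (adjusted p = 0.395), the lowest of this role in zebrafish.

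In platyfish, cebpb (ENSXMAG00000019665, chromosome 1) had 1461, 871 and 1125 normalised counts in cryoinjured libraries and 794, 901 and 2223 in uninjured ones. The highest library of all 6 was uninjured replicate 3, the groups overlapped, and the log2 fold change was -0.18 ± 0.41 (adjusted p = 0.823). Platyfish cebpa stood at 95.5, 59.3 and 75.2 in cryoinjured libraries and 44, 60.3 and 97.3 in uninjured ones, also overlapping (0.20 ± 0.34, adjusted p = 0.757). Platyfish irf8 had 220, 382 and 234 in cryoinjured libraries and 141, 233 and 282 in uninjured ones (0.36 ± 0.30, adjusted p = 0.503), and its groups overlapped as well. No platyfish gene carried the symbol spi1a or spi1b. A gene with the symbol SPI1, which is not among the 46, had 240, 334 and 286 in cryoinjured platyfish and 111, 231 and 224 in uninjured platyfish (log2 fold change 0.61, adjusted p = 0.224).

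**Figure D3:**
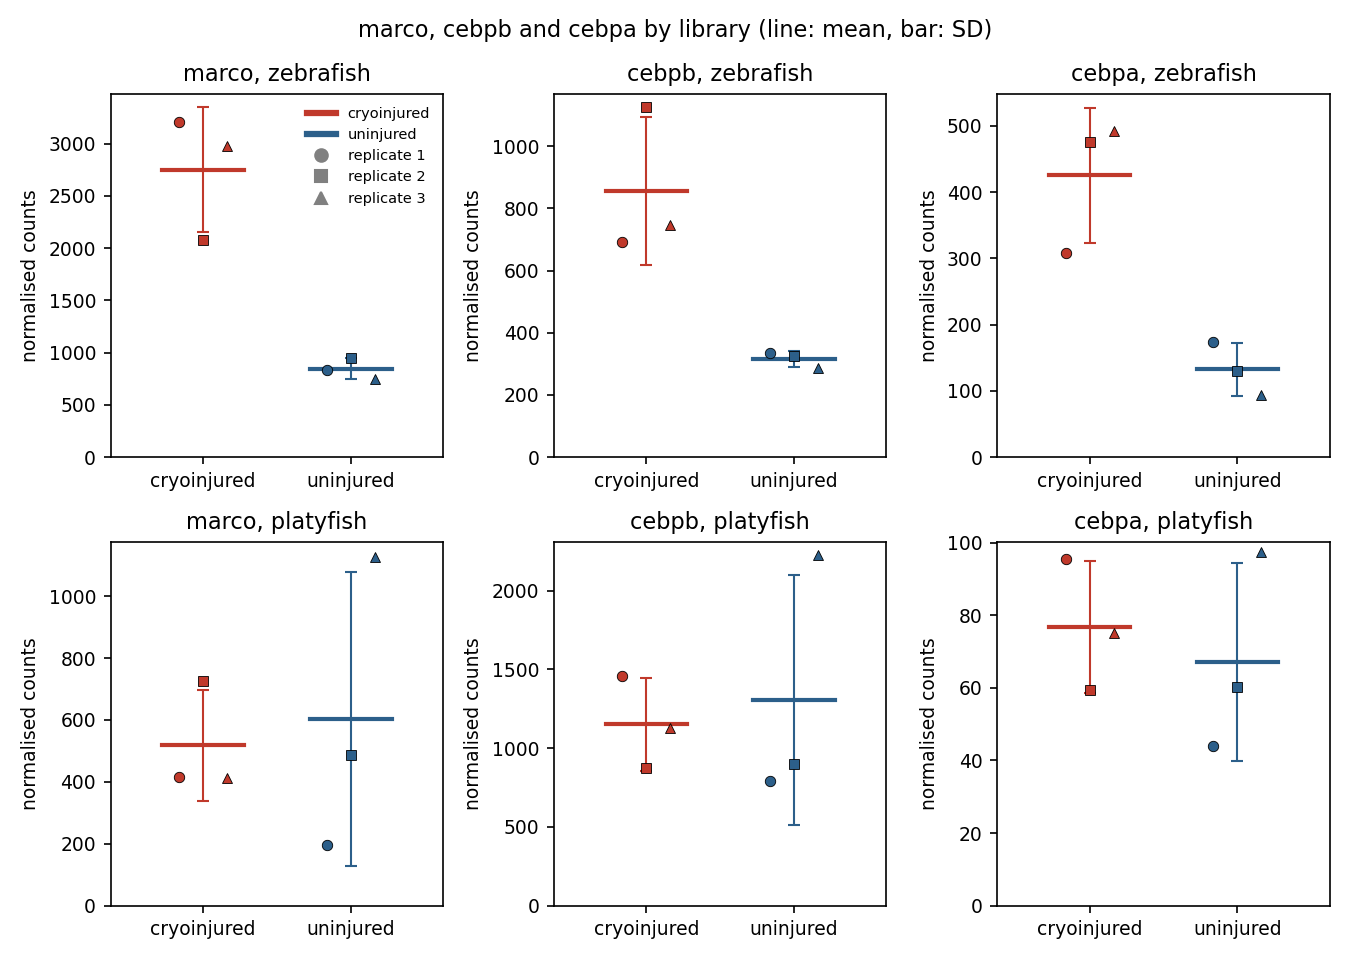
Normalised read counts of marco, cebpb and cebpa in each library, zebrafish in the upper row and platyfish in the lower; points are pools of ventricles, lines are means and bars are SD (n = 3), on linear axes that start at 0. In zebrafish every cryoinjured point lies above every uninjured point in all 3 genes; in platyfish the groups overlap in all 3, and uninjured replicate 3 is the highest library.

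Among surface receptors, marco was the only gene to pass the test, and it had the lowest adjusted p of all the phagocyte genes. The gene (ENSDARG00000059294, chromosome 9) encodes a scavenger receptor of macrophages that binds bacteria and particles. It had 3205, 2073 and 2972 normalised counts in cryoinjured zebrafish libraries, against 836, 949 and 750 in uninjured ones. The lowest cryoinjured library was above the highest uninjured one, and marco rose by 1.70 ± 0.18 on the log2 scale (SE, n = 3 per group, adjusted p = 0.00197). Its means were 2750.2 ± 598 and 845 ± 100 (SD), and the log2 ratios by replicate number were 1.94, 1.13 and 1.99. It passed under all 12 alternatives tried in zebrafish, with adjusted p-values between 1.65e-15 and 0.0188.

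In platyfish, MARCO (ENSXMAG00000022971, chromosome 7) had 417, 725 and 412 normalised counts in cryoinjured libraries and 196, 487 and 1125 in uninjured ones. The uninjured pools spanned the cryoinjured ones, with means of 518 ± 179 in cryoinjured and 603 ± 475 in uninjured platyfish (SD) and a log2 fold change of -0.21 ± 0.60 (adjusted p = 0.861). Without uninjured replicate 3 the log2 fold change of MARCO was 0.60, and that of cebpb was 0.44; neither passed the test.

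The CD45 gene ptprc, a phosphatase on all white blood cells, had 639, 1002 and 750 normalised counts in cryoinjured zebrafish and 420, 684 and 321 in uninjured zebrafish. Uninjured replicate 2 exceeded cryoinjured replicate 1, so the groups overlapped, and the log2 fold change was 0.75 ± 0.28 (adjusted p = 0.245). Platyfish PTPRC had 1851, 2335 and 2242 in cryoinjured libraries and 1730, 2147 and 2702 in uninjured ones. That is a log2 fold change of -0.03 ± 0.19 (adjusted p = 0.936), with full overlap of the groups.

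The gene havcr1, whose mammalian counterpart TIM-1 binds phosphatidylserine on dying cells, had 280, 314 and 336 normalised counts in cryoinjured zebrafish and 203, 109 and 133 in uninjured zebrafish. The groups were separate, but the log2 fold change of 1.06 ± 0.25 missed the threshold (adjusted p = 0.0749). The tetraspanin gene cd9b had the largest log2 fold change of all 38 genes, 2.44 ± 0.83 (adjusted p = 0.204), on few reads: 50, 52 and 10 raw counts in cryoinjured libraries, against 4, 13 and 2 in uninjured ones. Cryoinjured replicate 3 lay below uninjured replicate 2. The least difference of this role in zebrafish was that of nccrp1, a receptor of fish cytotoxic cells (0.29 ± 0.42, adjusted p = 0.787). The adaptor gene tyrobp (DAP12) could not be tested, with 2, 0 and 0 raw counts in cryoinjured zebrafish and 4, 1 and 0 in uninjured zebrafish. In platyfish the log2 fold changes of all 4 tested receptor genes were below 0, between -0.63 for cd9b and -0.03 for PTPRC, and none passed (adjusted p 0.664 to 0.936).

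Growth factor receptors showed no call in either species. The receptor for colony-stimulating factor 1 maintains macrophages and, in fish, pigment cells. Its gene csf1ra had 210, 110 and 98.5 normalised counts in cryoinjured zebrafish, against 123, 161 and 137 in uninjured zebrafish. Cryoinjured replicate 1 was the highest and the other two were the lowest of the 6 libraries, and the log2 fold change was -0.00 ± 0.31 (adjusted p = 0.996). The sign of this estimate turned when effective library sizes were set by relative log expression or by total counts. Its paralogue csf1rb was near the limit of detection, with 13, 2 and 4 raw counts in cryoinjured zebrafish and 12, 9 and 22 in uninjured zebrafish; in normalised counts these are 11.5, 2.03 and 4.38 against 11.1, 9.90 and 22.3 (log2 fold change -1.23 ± 0.82, adjusted p = 0.513). The groups overlapped. The neutrophil growth factor receptor csf3r had 43.5, 24.4 and 39.4 in cryoinjured zebrafish and 27.8, 30.8 and 10.1 in uninjured zebrafish, again overlapping (0.64 ± 0.53, adjusted p = 0.610).

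Platyfish csf1ra had 262, 344 and 303 normalised counts in cryoinjured libraries and 221, 420 and 352 in uninjured ones (log2 fold change -0.13 ± 0.24, adjusted p = 0.777). Platyfish csf3r had 659, 715 and 584 in cryoinjured libraries and 382, 764 and 585 in uninjured ones (0.18 ± 0.23, adjusted p = 0.677). In both genes the uninjured libraries held the lowest and the highest values.

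The phagocyte NADPH oxidase makes superoxide to kill microbes, from a membrane core (cybb, cyba), cytosolic subunits (ncf1, ncf4) and the small GTPase rac2. None of the 5 passed edgeR's test in zebrafish, and all 5 had a log2 fold change above 0, with a median of 1.05. DESeq2 called cyba, cybb, ncf1 and rac2 higher in zebrafish, and so did the authors' deposited table, which also came from DESeq2. The catalytic subunit cybb had 330, 404 and 568 normalised counts in cryoinjured zebrafish, against 177, 266 and 143 in uninjured zebrafish. The organiser ncf1 had 330, 520 and 482 in cryoinjured zebrafish, against 203, 286 and 139 in uninjured zebrafish. In both, the lowest cryoinjured library exceeded the highest uninjured one, as it did in rac2. Their log2 fold changes were close to one another, at 1.15 ± 0.27 for cybb (adjusted p = 0.0801), 1.09 ± 0.27 for ncf1 (adjusted p = 0.0934) and 1.05 ± 0.25 for rac2 (adjusted p = 0.0839). The gene cyba had 363, 526 and 677 in cryoinjured zebrafish and 223, 394 and 163 in uninjured zebrafish, overlapping through uninjured replicate 2 (1.01 ± 0.34, adjusted p = 0.208). The lowest of the role was ncf4, with 9 to 34 raw counts per library (0.57 ± 0.60, adjusted p = 0.699).

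In platyfish cyba (ENSXMAG00000003013, chromosome 4) stood out within the oxidase. It had 670, 954 and 644 normalised counts in cryoinjured libraries and 242, 424 and 452 in uninjured ones. The groups were separate, and the log2 fold change of 1.02 ± 0.25 had an adjusted p of 0.0625, the lowest of the 34 platyfish genes. The catalytic partner cybb had 239, 460 and 337 in cryoinjured platyfish and 189, 309 and 397 in uninjured platyfish, with overlap (0.22 ± 0.31, adjusted p = 0.707). For ncf1 the values were 184, 302 and 201 in cryoinjured platyfish and 95.2, 186 and 165 in uninjured platyfish (0.63 ± 0.29, adjusted p = 0.227), with uninjured replicate 2 just above cryoinjured replicate 1. Log2 fold changes of ncf4 and rac2 were 0.29 and 0.35.

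**Figure D4:**
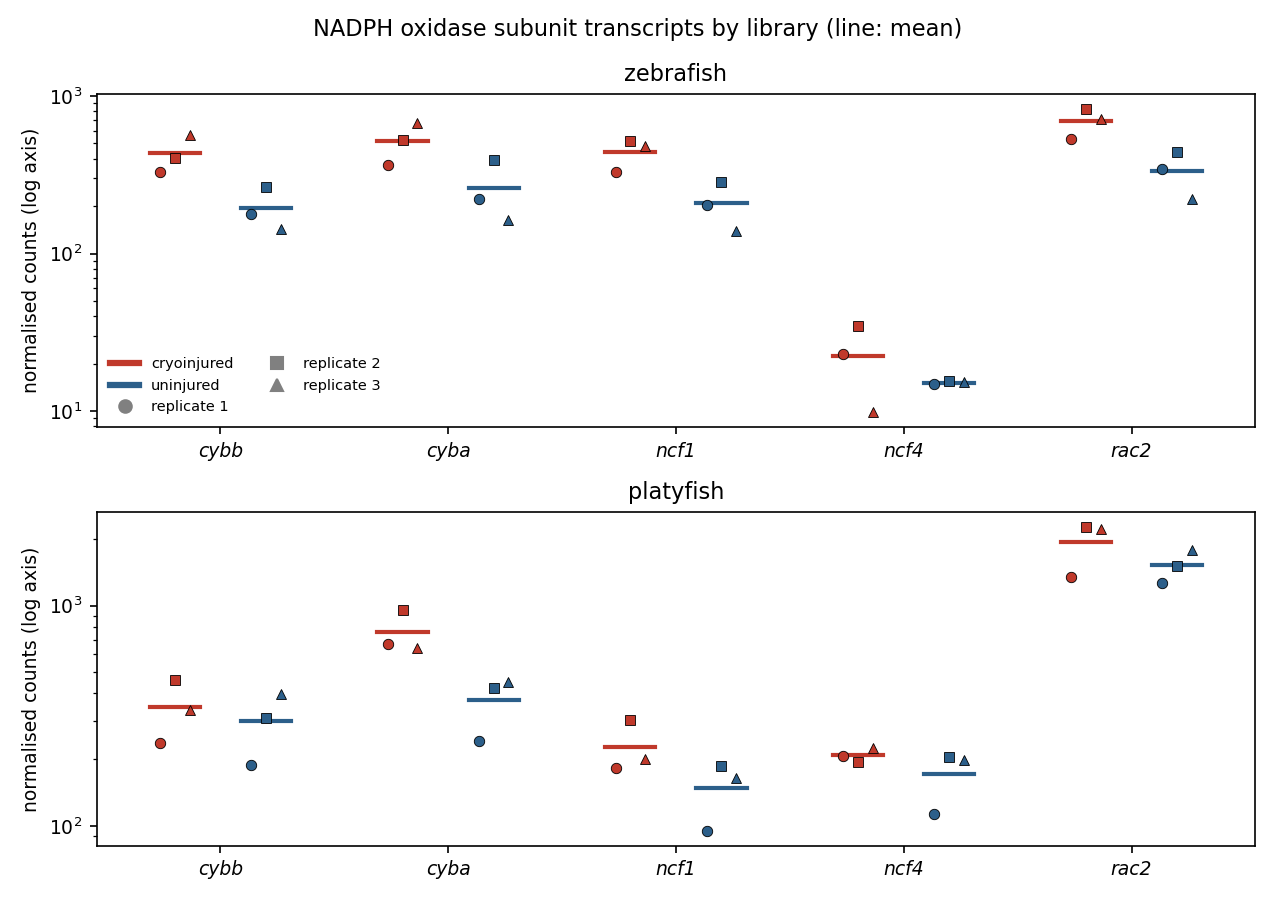
Normalised read counts of the 5 NADPH oxidase genes in each library of zebrafish and platyfish, on a log axis; points are pools of ventricles and short lines are group means (n = 3). In zebrafish the cryoinjured and uninjured points are separate for cybb, ncf1 and rac2; in platyfish they are separate for cyba.

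Kinases and phosphatases next to immune receptors (the Src-family kinases hck and lyn, syk, btk, the phospholipase plcg2, the exchange factor vav1, the phosphatases ptpn6 and inpp5d, and the kinase C substrate plek) gave no call in edgeR's test. DESeq2 called zebrafish hck higher. In zebrafish the log2 fold changes of 7 tested genes ran between -0.03 ± 0.25 for plcg2 and 1.16 ± 0.42 for hck (adjusted p 0.198 to 0.965). The gene hck had 531, 277 and 337 normalised counts in cryoinjured zebrafish and 153, 278 and 84.1 in uninjured zebrafish, with uninjured replicate 2 level with cryoinjured replicate 2. Lyn was listed under 2 identifiers on chromosome 2, with log2 fold changes of 0.82 and 0.14, and reads could have been divided between such copies. The inositol phosphatase gene inpp5d had no count in any zebrafish library, and btk had 18, 19 and 3 raw counts in cryoinjured zebrafish and 8, 2 and 7 in uninjured zebrafish; neither was tested. No zebrafish gene carried the symbol vav1. In platyfish all 9 genes were tested, and their log2 fold changes ran between 0.05 for VAV1 and 0.32 for syk (adjusted p 0.309 to 0.921).

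Actin regulators drive the crawling and engulfment of white blood cells. The plastin lcp1, which bundles actin and is a pan-leukocyte marker, had 541, 639 and 507 normalised counts in cryoinjured zebrafish, against 613, 690 and 254 in uninjured zebrafish. The highest and the lowest of the 6 libraries were both uninjured, and the log2 fold change was 0.12 ± 0.32 (adjusted p = 0.898). Zebrafish coro1a, encoding a coronin of haematopoietic cells, held 6.22, 17.3 and 12 in cryoinjured libraries and 12, 23.1 and 4.05 in uninjured ones (-0.14 ± 0.78, adjusted p = 0.953). At these low levels the groups overlapped fully, and the sign turned when only total counts were used for scaling or when limma voom was used. The Wiskott-Aldrich gene wasb, an activator of actin branching, had the highest value of this role in zebrafish (0.85 ± 0.20, adjusted p = 0.0823). Its groups were separate. Those of arpc1b, a subunit of the Arp2/3 branching complex, were narrowly separate (0.60 ± 0.28, adjusted p = 0.341). Cryoinjured replicate 1 had 1266 normalised counts of arpc1b and uninjured replicate 2 had 1250. The gene arhgdig had a log2 fold change of 0.78 (adjusted p = 0.254), and no zebrafish gene carried the symbol dock2.

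Platyfish coro1a (ENSXMAG00000013664, chromosome 16) had 2450.5, 3026 and 3671 normalised counts in cryoinjured libraries and 1563, 2132 and 2080.0 in uninjured ones. The groups were separate, and the log2 fold change of 0.66 ± 0.19 had an adjusted p of 0.0857. Platyfish lcp1 had 3600.4, 4497 and 4896 in cryoinjured libraries and 2071, 3502 and 3476 in uninjured ones, also separate (0.52 ± 0.22, adjusted p = 0.196). So was arpc1b (0.63 ± 0.19, adjusted p = 0.101). The lowest of this role was DOCK2, an activator of Rac in leukocytes, at 0.11 ± 0.24. Platyfish arhgdig had 1, 0 and 2 raw counts in cryoinjured libraries and 0, 8 and 0 in uninjured ones and was not tested.

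Granule and antimicrobial genes were unevenly covered. Myeloperoxidase, encoded by mpx, is the classical neutrophil marker. In zebrafish mpx had 87.0, 67.0 and 99.6 normalised counts in cryoinjured libraries and 31.5, 95.7 and 14.2 in uninjured ones. Uninjured replicate 2 reached the cryoinjured range while the other uninjured pools were far below it, and the log2 fold change was 0.85 ± 0.58 (adjusted p = 0.524). Without uninjured replicate 2 it was 1.87, and without uninjured replicate 3 it was 0.41; neither passed. Lysozyme (lyz), a marker of myeloid cells in zebrafish, had 1 raw count in cryoinjured replicate 1 and none in the other 5 libraries. The pore-forming gene mpeg1.1, the usual zebrafish macrophage marker, had 11, 7 and 18 raw counts in cryoinjured libraries and 7, 6 and 1 in uninjured ones. After normalisation its cryoinjured libraries, at 9.77, 7.11 and 19.7, lay above the uninjured ones, at 6.48, 6.60 and 1.01. Neither lyz nor mpeg1.1 had enough counts for the test. Zebrafish mpeg1.2, which is not among the 46, had 187, 155 and 210 normalised counts in cryoinjured libraries and 173, 202 and 239 in uninjured ones. Its groups overlapped (log2 fold change -0.16, adjusted p = 0.774). Whether the annotation or the counting of reads set the near-0 counts of zebrafish lyz, tyrobp, inpp5d, alox5a and coro1a was not tested.

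Platyfish mpx (ENSXMAG00000004163, chromosome 8) had 806, 831 and 572 normalised counts in cryoinjured libraries and 292, 439 and 486 in uninjured ones. The groups were separate, and the log2 fold change of 0.86 ± 0.22 had an adjusted p of 0.0654. A second mpx identifier on the same chromosome had 5, 6 and 10 raw counts in cryoinjured and 1, 3 and 5 in uninjured platyfish. Platyfish LYZ (ENSXMAG00000011983, chromosome 8) had 1755, 1676 and 1601 in cryoinjured libraries and 646, 1446 and 1989 in uninjured ones, with overlap (0.30 ± 0.35, adjusted p = 0.629). Its second identifier, also on chromosome 8, had 3, 2 and 1 raw counts in cryoinjured and 0, 2 and 4 in uninjured platyfish. The second copies were not tested, and how reads that fit both copies were counted is not given in the sources used here. No platyfish gene carried the symbol mpeg1.1. Platyfish mpeg1.2 had 397, 865 and 509 normalised counts in cryoinjured libraries and 371, 332 and 553 in uninjured ones. Its groups overlapped (log2 fold change 0.50, adjusted p = 0.360).

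Granulins are secreted, cysteine-rich growth factors cut from a precursor, and are abundant in macrophages. In zebrafish the precursor gene grna had 1602, 1844 and 2820 normalised counts in cryoinjured libraries and 928, 1560 and 765 in uninjured ones. The groups were narrowly separate, with uninjured replicate 2 close to cryoinjured replicate 1, and the log2 fold change was 0.95 ± 0.30 (adjusted p = 0.197). The short granulin gene grn1 had 1632, 2177 and 4084 in cryoinjured zebrafish, against 422, 3958 and 130 in uninjured zebrafish. Uninjured replicate 2 was within the cryoinjured range while replicates 1 and 3 of that group were far below it. The log2 fold change was 0.81 ± 1.37 (adjusted p = 0.828). Leaving out 1 library gave values between 0.26, without uninjured replicate 3, and 3.24, without uninjured replicate 2, and none passed. Counts of grn1 made up 9.13%, 10.1% and 17.1% of all counts of the phagocyte genes in cryoinjured zebrafish, against 4.35%, 23.6% and 1.83% in uninjured zebrafish.

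Its neighbour grn2, on the same chromosome 19, had 152, 549 and 833 normalised counts in cryoinjured zebrafish and 32.4, 288 and 29.4 in uninjured zebrafish. As with grn1, uninjured replicate 2 was the highest of its group and exceeded cryoinjured replicate 1, and the log2 fold change was 2.14 ± 1.16 (adjusted p = 0.460), or 4.03 without uninjured replicate 2 (adjusted p = 0.0976). Similar copies could share reads, so the split between grn1 and grn2 is uncertain. Platyfish grna had 2997, 3102 and 3226 in cryoinjured libraries and 2325, 3063 and 3122 in uninjured ones, overlapping narrowly (0.13 ± 0.15, adjusted p = 0.635). No platyfish gene carried the symbol grn1 or grn2.

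**Figure D5:**
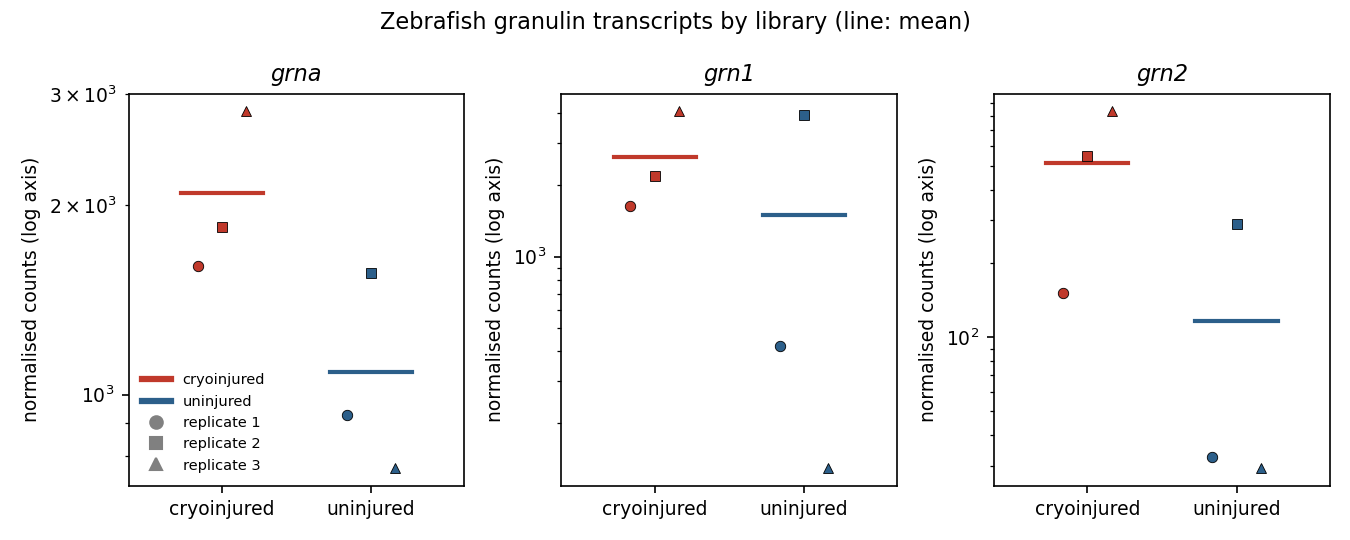
Normalised read counts of grna, grn1 and grn2 in each zebrafish library, on a log axis; points are pools of ventricles and short lines are group means (n = 3). Uninjured replicate 2 lies apart from the other uninjured pools in grn1 and grn2, at 3958 and 288.

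Leukotriene synthesis starts with 5-lipoxygenase (alox5a) and its activating protein (alox5ap) and yields lipids that attract neutrophils. In zebrafish alox5a had 0, 0 and 4 raw counts in cryoinjured libraries and 0, 2 and 1 in uninjured ones, too few to test. Zebrafish alox5ap had 2 to 20 raw counts per library (log2 fold change 0.69 ± 0.89, adjusted p = 0.751). Platyfish alox5a had 24.8, 42.6 and 34.4 normalised counts in cryoinjured libraries and 19.8, 16.4 and 61.4 in uninjured ones. The groups overlapped (0.09 ± 0.53, adjusted p = 0.941), as they did for platyfish alox5ap (0.15 ± 0.29, adjusted p = 0.786).

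Of the lysosomal and transport genes, slc37a2, a sugar-phosphate exchanger known from zebrafish macrophages, had 548, 610 and 697 normalised counts in cryoinjured zebrafish and 525, 614 and 586 in uninjured zebrafish. The libraries differed little, and the log2 fold change was 0.11 ± 0.14 (adjusted p = 0.771). In platyfish it had 310, 382 and 334 in cryoinjured libraries and 255, 358 and 383 in uninjured ones (0.04 ± 0.19, adjusted p = 0.909). The lysosomal membrane gene laptm5 of white blood cells was narrowly separate between the zebrafish groups at 0.47 ± 0.20 (adjusted p = 0.283). Cryoinjured replicate 1 had 295 normalised counts of laptm5 and uninjured replicate 2 had 289. No platyfish gene carried its symbol.

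Whether the injury response differed between species was tested for symbols that occur once in each table, with zebrafish cryoinjured over uninjured set against platyfish cryoinjured over uninjured. Of 33 shared symbols, 30 had 1 gene in each table (lyn, lyz and mpx had copies), and 26 had enough counts in both species. In this test over 8098 matched genes, none of the 26 had an adjusted p under 0.05 in edgeR's quasi-likelihood test, against a background of 2.49% of all matched genes (1.14% more positive in zebrafish and 1.36% more positive in platyfish). At an unadjusted p under 0.05 there were 5 of 26, against 19.5% of all matched genes. DESeq2 called 3, all more positive in zebrafish, against 3.94% of all matched genes in that direction and 7.80% in either, and limma voom called 0. The response was more positive in zebrafish for 21 of 26 genes, against 46.1% of all matched genes, with a median difference of 0.49 against -0.05.

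The lowest adjusted p-values for this difference were in the 3 genes that rose in zebrafish. The log2 fold change in zebrafish minus that in platyfish was 1.62 ± 0.48 for cebpb (SE, adjusted p = 0.0904), 1.47 ± 0.45 for cebpa (adjusted p = 0.0997) and 1.91 ± 0.63 for marco (adjusted p = 0.118) in edgeR's test. These were the genes that DESeq2 called, with adjusted p-values of 0.0204 for cebpb, 0.0295 for cebpa and 0.0327 for marco. Without platyfish uninjured replicate 1, marco passed in edgeR (2.34, adjusted p = 0.0403). Without platyfish uninjured replicate 3 the differences were 1.102 for marco, 1.00 for cebpb and 1.12 for cebpa (adjusted p = 0.222, 0.118 and 0.191 in the same edgeR test). Over all alternatives the adjusted p of marco ran between 0.0327 and 0.228. The oxidase genes had differences of 0.93 ± 0.46 for cybb and -0.02 ± 0.46 for cyba. The largest difference in size was that of cd9b, 3.09 ± 1.23 (adjusted p = 0.193 in edgeR's test), on few reads in both species. The gene coro1a had the most negative difference, -0.80 ± 0.58 (adjusted p = 0.480), on the few zebrafish counts given above.

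Other genes of the same pathways were counted on further lists of symbols. Of all genes tested, 0.676% were called higher in zebrafish and 2.70% in platyfish. In zebrafish, 2 of 20 further macrophage surface, scavenger and lysosomal genes rose and none fell. These were the mannose receptor gene mrc1b (log2 fold change 1.11, adjusted p = 0.0318) and the apolipoprotein gene apoeb (4.67, adjusted p = 0.0448), in edgeR's test. No call was made among 8 further oxidase and granule genes, 18 Fc and immune receptor signalling genes, 16 actin and adhesion genes, 8 eicosanoid genes or 11 inflammatory cytokine and chemokine genes of zebrafish. The median log2 fold changes of these lists lay between 0.40 and 0.72, and that of the macrophage list was 0.79. In platyfish 1 of 19 genes on the macrophage list rose, the fatty acid binding gene fabp11a (1.51, adjusted p = 0.0111). The kinase gene prkcda, 1 of 18 signalling genes, and the integrin activator gene fermt3b, 1 of 11 actin and adhesion genes, rose as well, by 0.77 and 1.01 on the log2 scale. None was called lower, and no call was made among 3 oxidase, 7 eicosanoid or 7 cytokine genes of platyfish. On the platyfish macrophage list, the cryoinjured libraries all lay above the uninjured ones in 6 of 19 genes and all below them in 3. Over all platyfish genes tested these shares were 16.8% and 13.6%. The median log2 fold changes of the platyfish lists were 0.04 for the macrophage, 0.37 for the oxidase, 0.12 for the signalling, 0.10 for the actin, -0.16 for the eicosanoid and 0.46 for the cytokine genes.

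Markers of other cells moved with injury too. Of all genes tested, 0.676% were called higher and 0.304% lower in zebrafish, and 2.70% higher and 1.22% lower in platyfish. In zebrafish 5 of 14 fibroblast and epicardial markers rose and none fell, with summed levels of 601 to 753 CPM in cryoinjured libraries and 202 to 235 CPM in uninjured ones. In platyfish 8 of 16 rose and none fell, with sums of 743 to 1268 CPM in cryoinjured libraries and 272 to 410 CPM in uninjured ones. Of cardiomyocyte markers, 4 of 20 fell in zebrafish, with sums of 75448 to 95572 CPM in cryoinjured libraries and 96203 to 106158 CPM in uninjured ones. In platyfish 0 of 11 were called, with sums of 62319 to 70117 CPM in cryoinjured libraries and 68705 to 71688 CPM in uninjured ones.

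Lymphocyte markers, a list without ptprc and ikzf1, gave 0 calls of 8 tested in each species. Their sums were 25.7 to 30.2 CPM in cryoinjured zebrafish and 17.8 to 20.9 CPM in uninjured zebrafish, and 40.3 to 61.3 CPM in cryoinjured platyfish and 32.7 to 65.6 CPM in uninjured platyfish. In cryoinjured zebrafish replicate 1 the most raw counts on this list were those of cd3eap (238) and gata3 (183). The gene cd3eap, among the 8 tested in each species, encodes an RNA polymerase I subunit and not a T cell receptor chain. The sums are therefore not of lymphocyte RNA alone, and how far they measure lymphocytes was not tested. The markers cd4-1 and nkl.3 were at 0 in all zebrafish libraries, as were rag1 and rag2 in all platyfish libraries. Endothelial markers gave 0 calls of 16 in zebrafish (861 to 1074 CPM in cryoinjured and 673 to 779 CPM in uninjured libraries) and 0 of 14 in platyfish (1046 to 1522 CPM in cryoinjured and 1079 to 1398 CPM in uninjured libraries). Red blood cell markers gave 0 calls of 9 in zebrafish and 1 of 5 in platyfish, the factor gata1a (log2 fold change 1.26). Of all platyfish genes tested, 2.70% were called higher. Their sums were 267 to 811 CPM in cryoinjured zebrafish, 422 to 957 CPM in uninjured zebrafish, 349 to 787 CPM in cryoinjured platyfish and 144 to 346 CPM in uninjured platyfish. The part of these other cells in the values of the phagocyte genes was not tested.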

How the data were processed

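Per the labels' protocols, RNA from each pool was extracted with Trizol, treated with DNase and made into stranded, poly(A)-selected mRNA libraries. The submitters' processing notes name FastQC, HISAT2 2.2.1, featureCounts 2.0.1, DESeq2 1.38.3 and the build GRCz11 for libraries of both species; the platyfish build, the annotation and the strand setting are not given in the sources used here. The authors deposited raw counts per gene, which were used here, and normalised counts (a signal scaled by DESeq2 size factors), whose values were not used but whose rows gave each gene's symbol and chromosome. The authors' deposited table of log2 fold changes and adjusted p-values was used for comparison, and its test statistic, a score, was not used.

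Genes passing edgeR's filterByExpr were tested per species (edgeR 4.0.16, R 4.3.3, TMM scaling, robust quasi-likelihood fit, Benjamini-Hochberg over all genes tested, threshold 0.05). Standard errors were derived from the F statistic, as the absolute estimate over the root of F. Every p-value sets a group difference against the spread between pools, not between fish. The species difference was a contrast over all 12 libraries with scaling within species. The fits were tested on simulated data with known log2 changes of 1.5. They recovered 60.5% of the changes in zebrafish, 74.2% in platyfish and 54% in the species difference. The mean share of false calls was above the threshold in each comparison, at 11.9%, 6.76% and 5.20% in that order. Each comparison had 3 simulations with 200 changed genes. With so few simulations, the 5.20% of the species difference cannot be told from the threshold. DESeq2 1.42.0, limma voom (limma 3.58.1), other scalings, no filter, a replicate block and leaving out each library were alternatives. Replicate numbers stand in a batch field of the labels. They were therefore taken to pair libraries in the replicate block and in the ratios by replicate number, but not in the main test. Deviations from group means correlated at 0.134, 0.140 and 0.0123 between same-numbered zebrafish libraries and at -0.0854, -0.184 and -0.178 between platyfish ones. Libraries of a group differed beyond sampling noise (chi-square per degree of freedom at least 21.2). Per-library values are given for 24 chosen genes and for each gene past the threshold; other genes appear by range, with the highest or lowest of their role. Genes outside the 46 are named from the other lists only where past the threshold, or, for markers of other cells, where at 0 in all libraries. The gene cd9b, arpc1b of both species, platyfish SPI1, and the zebrafish genes wasb, hck and cyba were given beyond this rule after their values were seen. So were mpeg1.2 of both species and the zebrafish genes cd3eap and gata3. Genes and lists were chosen with earlier results of these data known.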

Additional observations from a re-analysis of the deposited data

How the results depend on the processing

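Counts of all genes called moved with the tool. In zebrafish 132 genes were called; DESeq2 called 528, no filter on low counts 517 and scaling by total counts 229. The share called higher was 97.8% under scaling by total counts, against 68.9%, with the median log2 fold change of all genes at 0.16. Leaving out 1 library gave 29 to 288. In platyfish 597 were called, with 1623 by DESeq2, 256 under the replicate block and 27 to 1008 without 1 library. Scaling by total counts gave 544 higher and 104 lower, against 411 and 186, and the median moved to 0.14. For the species difference 202 were called, with 631 by DESeq2, 123 by total counts, 83 under the block and 66 to 480 without 1 library. Of the 202, 45.5% were more positive in zebrafish; by total counts 58.5% of the 123 were.

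The 3 phagocyte genes called in zebrafish became 13 by DESeq2, 9 by total counts, 10 without the filter and 1 to 5 without 1 library. Of all zebrafish genes, DESeq2 called 336 of 13345 higher, total counts 224 of 13470 and no filter 270 of 21820. The 0 in platyfish became 4 by DESeq2, 3 by total counts (arpc1b, coro1a and cyba) and 1 of 37 without the filter (mpx). It became 2 (cyba and mpx) without uninjured replicate 3. Of all platyfish genes, these settings called higher 885 of 15880, 544 of 15226, 506 of 20718 and 572 of 15536, in that order. Whether the phagocyte shares exceeded those of all genes was not tested. The 0 of the difference became 3 by DESeq2 and 1 without platyfish uninjured replicate 1. The replicate block changed no phagocyte call other than that of spi1a. Signs and ranges of the log2 fold changes of single genes were followed over the settings only for the 24 chosen genes, where tested. Signs turned for uncalled genes only: zebrafish coro1a at 0.00832 (total counts) and 0.0303 (voom), zebrafish csf1ra at 0.00213 (relative log expression) and 0.19 (total counts), and platyfish PTPRC at 0.0771 and csf1ra at 0.0091 (total counts) and MARCO at 0.13 (voom) and 0.0874 (block). Without 1 library, log2 fold changes of such genes spanned 0: zebrafish lcp1 (-0.22 to 0.37), coro1a (-0.57 to 0.53) and csf1ra (-0.43 to 0.19), platyfish PTPRC (-0.18 to 0.14), alox5a (-0.24 to 0.90), cybb (-0.0481 to 0.47), csf1ra (-0.36 to 0.0749), slc37a2 (-0.12 to 0.16), LYZ (-0.0400 to 0.68), csf3r (-0.0561 to 0.43), cebpb (-0.44 to 0.44), cebpa (-0.0408 to 0.55) and MARCO (-0.64 to 0.60), and in the species difference csf1ra (-0.31 to 0.36) and slc37a2 (-0.0501 to 0.23). The cause was not tested. With 3 pools a group, and few zebrafish reads for csf1rb, coro1a, ncf4, alox5ap and cd9b, small differences were not detectable. Larger ones could be missed too, as part of the simulated log2 changes of 1.5 was. An uncalled gene is therefore not shown to be unchanged.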

Other observations

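Thrombocytes, the clotting cells of fish, are another blood lineage than the phagocytes. In edgeR's quasi-likelihood test 4 of 8 tested thrombocyte genes rose in platyfish: the thrombopoietin receptor gene mpl (log2 fold change 1.03, adjusted p = 0.0435), the platelet glycoprotein gene gp1bb (1.69, adjusted p = 0.0293), the integrin gene itgb3b (1.06, adjusted p = 0.0276) and the thrombospondin gene thbs1b (1.47, adjusted p = 0.0187). In zebrafish 1 of 8 rose, thbs1b (1.57, adjusted p = 0.00173). Of all genes tested, 2.70% were called higher in platyfish and 0.676% in zebrafish. Summed levels were 108 to 136 CPM in cryoinjured platyfish and 39.1 to 62.0 CPM in uninjured platyfish, and 47.3 to 69.0 CPM in cryoinjured zebrafish and 17.3 to 27.6 CPM in uninjured zebrafish. The log2 fold change was above 0 in 7 of 8 tested thrombocyte genes in zebrafish and in 8 of 8 in platyfish. Over all genes tested these shares were 48.4% and 50.8%. All cryoinjured libraries lay above all uninjured ones in 3 of 8 in zebrafish and in 7 of 8 in platyfish, against 10.8% and 16.8% of all genes. The listed markers fgg and itgb3a were at 0 in all zebrafish libraries. How far the listed genes measure thrombocytes was not tested. Whether the counts of calls differ between species was not tested.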
